A study of Mus musculus with 6 samples.

Results

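The 38 genes described here encode proteins that fold, process and move secreted and membrane proteins in the endoplasmic reticulum (ER), together with the sensors and factors of the unfolded protein response (UPR). They were given as a list of gene symbols, drawn up with earlier results of these data known, and no threshold on their values was used. All 38 were measured by a probe set that names that gene alone, of 18193 genes on the array that were, and each gene was read from its brightest such probe set, by the mean of the 6 arrays. RNA came from uteri of intact female mice at 3.5 days post coitum (dpc) and was hybridised to Affymetrix arrays, 3 per genotype. Arid1a d/d uteri were Pgr cre/+ Arid1a f/f, in which Cre recombinase made from the progesterone receptor (Pgr) locus deletes floxed Arid1a, a subunit gene of the SWI/SNF chromatin remodelling complex, in PGR-expressing cells. Arid1a f/f uteri carried the same floxed alleles without Cre, so the genotypes also differed at the Pgr locus, and uterine cells that do not express PGR keep Arid1a in both. The age of the mice whose uteri went on the arrays was not stated. The labels do not say whether the 3 arrays of a genotype came from separate mice, so p-values measure the spread between these arrays, which may be partly technical.

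Proteins bound for the cell surface, the extracellular space or the uterine lumen enter the ER through the SEC61 channel, lose their signal peptide, fold with the help of chaperones and disulfide isomerases, and leave in COPII vesicles. When unfolded proteins build up, the membrane sensors IRE1 (Ern1), PERK (Eif2ak3) and ATF6 start the UPR, in which cleaved ATF6 and spliced XBP1 raise the genes of chaperones and of ER-associated degradation, and ATF4 and CHOP (Ddit3) act downstream of PERK. The cleavage of ATF6, the splicing of Xbp1 and the phosphorylation of PERK cannot be read from these arrays, which measure transcript levels.

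Arid1a itself was lower in Arid1a d/d uteri. Its brightest probe set read 51.9, 51.9 and 58.2 (linear RMA intensity, in arbitrary units) on the Arid1a d/d arrays, against 83.6, 86.9 and 104 on the Arid1a f/f arrays, a log2 fold change of -0.76 (SE 0.12, limma adjusted p = 0.0120). Whether this probe set lies in the deleted part of the gene was not examined.

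Of the 38 members, 1 was called higher in Arid1a d/d uteri and 1 lower at a limma adjusted p under 0.05. Sec23b, a COPII coat subunit, rose and Atf6, a UPR sensor, fell. Over all genes 3.37% were called higher and 4.06% lower, so the members' counts lay near or below the background. The members' log2 fold changes lay between -0.50 and 0.89, with 25 above 0 and 13 below. Their median was 0.17, beside -0.02 over all genes, of which 46.5% were above 0. Without Arid1a d/d replicate 2 the median was 0.06, with 24 members above 0, and without Arid1a d/d replicate 1 it was 0.27, with 26 above 0. Without Arid1a d/d replicate 1, 3 members were called higher (Hsp90b1, Sec11c and Sec23b). Without Arid1a f/f replicate 2 no member was called higher, and in every fit that left out Arid1a d/d replicate 2 or 3, or any Arid1a f/f array, no member was called lower.

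The values of 22 members overlapped between the genotypes. For 13 members, Sec23b among them, every Arid1a d/d array was above every Arid1a f/f array, where 13.4% of all genes had that order, and for 3 members, Atf6 among them, every Arid1a d/d array was below, where 16.0% of all genes did. At an unadjusted p under 0.05, limma counted 12 members higher (11.4% of all genes) and 3 lower (13.5% of all genes). Of the 13 on the higher side, 5 belonged to translocation and signal peptide removal, 2 were the lectin chaperones, 2 were ER chaperones, 2 took part in disulfide exchange and 2 in transport between ER and Golgi.

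**Figure D1:**
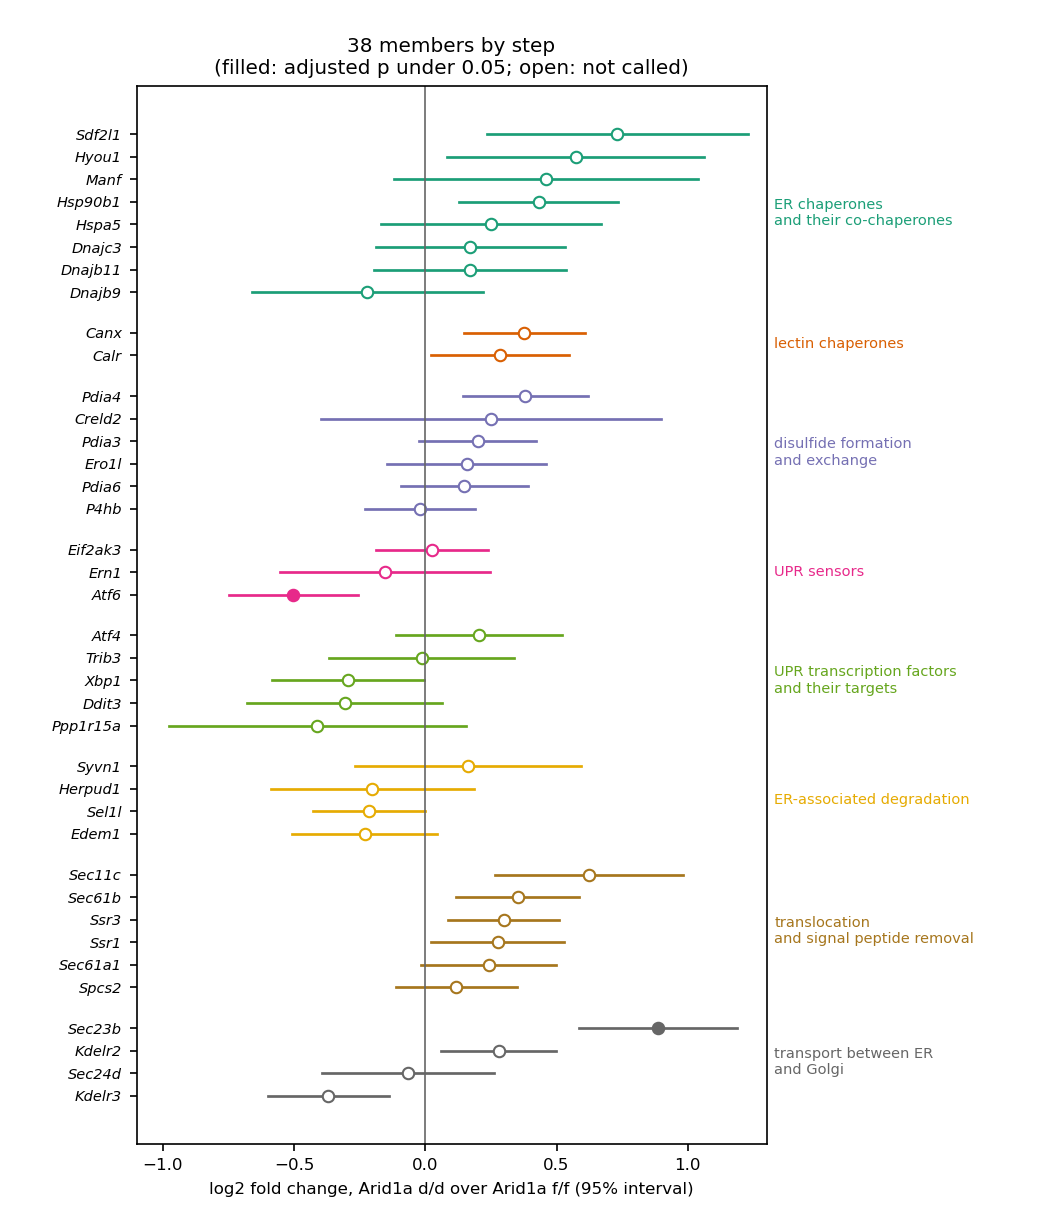
Log2 fold change of each of the 38 members, Arid1a d/d over Arid1a f/f, with its 95% interval from limma, grouped by step of the pathway; filled points passed an adjusted p under 0.05 and open points did not. Sec23b (0.89) and Atf6 (-0.50) are the filled points, and all 6 genes of translocation and signal peptide removal lie above 0.

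The promoters of many UPR target genes hold short elements. The list was not drawn up from promoter sequence, but it holds UPR target genes. The members' shares below are therefore not independent of how the list was chosen. The ER stress response element (ERSE; CCAAT, then 9 bases, then CCACG) is bound by NF-Y at its first part and by ATF6 at its second. ERSE-II (ATTGG, then 1 base, then CCACG) is a related element, the UPRE core TGACGTGG is bound by XBP1 and ATF6, and the amino acid response element core TTGCATCA is bound by ATF4 with C/EBP proteins. Each was searched on both strands of the RefSeq promoter windows of the build GRCm38.p6, which run from 250 bases before to 50 bases after a transcription start, and 32 of the 38 members had a window. An ERSE was found for 8 of these 32 members and in 0.119% of all 32851 windows (39 windows, 37 genes). ERSE-II was found for 2 members (0.0365% of windows), the UPRE core for 2 (0.676%) and the amino acid response element core for 1 (0.895%). ERSE and ERSE-II end in the same 5 bases, and no member site was counted under both. The member sites are shown because most of them lie in genes whose intensities are given in the next paragraphs, each with 15 bases on either side, written 5′ to 3′ on the strand on which the motif reads forward, with the motif's fixed bases in capitals.
Hspa5 ERSE (chr2:34772010-34772058, plus strand): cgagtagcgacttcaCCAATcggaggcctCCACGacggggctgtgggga
Hsp90b1 ERSE, distal (chr10:86705623-86705671, minus strand): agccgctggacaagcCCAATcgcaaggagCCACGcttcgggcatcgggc
Hsp90b1 ERSE, proximal (chr10:86705518-86705566, plus strand): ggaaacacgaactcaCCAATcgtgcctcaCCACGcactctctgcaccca
Dnajc3 ERSE (chr14:118937812-118937860, plus strand): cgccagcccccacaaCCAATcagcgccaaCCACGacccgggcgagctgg
Calr ERSE (chr8:84847060-84847108, plus strand): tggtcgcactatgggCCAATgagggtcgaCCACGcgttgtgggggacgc
Canx ERSE (chr11:50325785-50325833, minus strand): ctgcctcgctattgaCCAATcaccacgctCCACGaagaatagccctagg
Pdia6 ERSE (chr12:17266476-17266524, plus strand): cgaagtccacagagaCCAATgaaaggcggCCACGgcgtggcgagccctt
Creld2 ERSE (chr15:88819505-88819553, minus strand): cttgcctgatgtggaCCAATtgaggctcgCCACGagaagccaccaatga
Syvn1 ERSE (chr19:6046517-6046565, plus strand): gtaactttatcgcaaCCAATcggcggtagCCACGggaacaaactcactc
Herpud1 ERSE-II (chr8:94386362-94386402, plus strand): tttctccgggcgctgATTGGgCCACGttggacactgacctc
Herpud1 amino acid response element core (chr8:94386302-94386339, plus strand): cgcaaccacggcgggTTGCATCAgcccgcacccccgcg
Dnajb11 ERSE-II (chr16:22857837-22857877, plus strand): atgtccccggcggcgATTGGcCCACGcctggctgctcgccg
Sec24d UPRE core (chr3:123267455-123267492, plus strand): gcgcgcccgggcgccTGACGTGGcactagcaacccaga
Kdelr3 UPRE core (chr15:79516363-79516400, minus strand): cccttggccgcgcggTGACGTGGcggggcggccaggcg

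The 8 members with an ERSE had log2 fold changes between 0.15 and 0.43, all above 0, with a median of 0.25, and none was called. Without Arid1a d/d replicate 2 their median was 0.08 and 7 of the 8 were above 0, and without Arid1a d/d replicate 1 it was 0.42. The 24 members with a window and no ERSE had a median of 0.01 (0.00356 to 0.07 with any 1 array left out), with 12 above 0, and held the called gene Sec23b. Atf6 (-0.50), Sec11c (0.62), Sec61a1 (0.24), Kdelr2 (0.28), Manf (0.46) and Hyou1 (0.57) had no window and were in neither group. Among measured genes outside the list, 12 had an ERSE in their window, and their median was -0.03 with 4 above 0. A match is a description of the sequence and not evidence of a bound site.

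**Figure D2:**
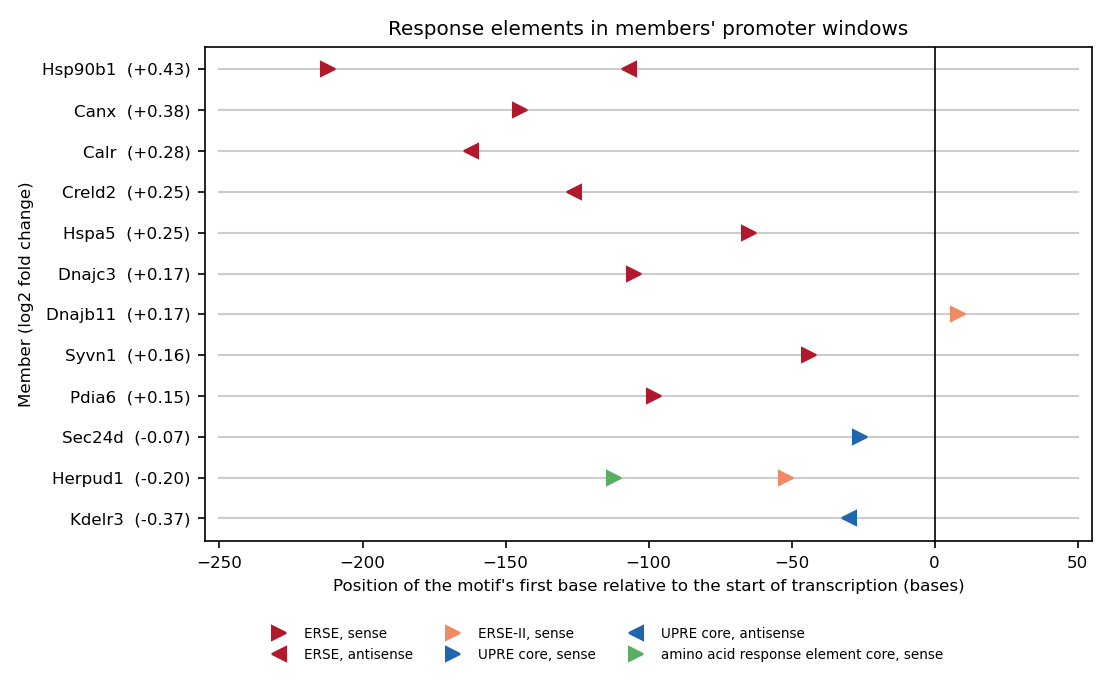
Position of each element in the members' promoter windows, relative to the start of transcription at 0, with triangles pointing along the strand on which the motif reads forward and the log2 fold change (Arid1a d/d over Arid1a f/f) beside the gene. The ERSE sites began between 44 bases (Syvn1) and 212 bases (the distal Hsp90b1 site) before the start, and the 9 members with an ERSE or, for Dnajb11, an ERSE-II at the top are above 0 while Sec24d, Herpud1 and Kdelr3 are below.

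The ER chaperones and co-chaperones comprised 8 members, and none was called. Of these, 7 were above 0 and 1, Dnajb9, was below, with a median log2 fold change of 0.34, and 3 were higher at an unadjusted p under 0.05. Hspa5 encodes BiP, the HSP70 of the ER lumen that also holds the UPR sensors inactive. It had the highest mean of the step and read 491, 835 and 662 on the Arid1a d/d arrays, against 512, 616 and 512 on the Arid1a f/f arrays. On this probe set the genotypes overlapped, since Arid1a d/d replicate 1 was the lowest of all 6 arrays (log2 fold change 0.25, SE 0.18, limma adjusted p = 0.553, 95% interval -0.17 to 0.67). The second Hspa5 probe set overlapped and gave 0.44 (adjusted p = 0.335), and the third did not overlap and gave 0.36 (adjusted p = 0.187). Sdf2l1, a cofactor of BiP, had the highest fold change of the step. It read 39.9, 51.4 and 40.5 on the Arid1a d/d arrays, against 28.9, 34.4 and 18.3 on the Arid1a f/f arrays, without overlap (log2 fold change 0.73, SE 0.22, adjusted p = 0.105). Hsp90b1, which encodes the ER HSP90 called GRP94, also did not overlap, with 488, 618 and 656 on the Arid1a d/d arrays, against 432, 469 and 397 on the Arid1a f/f arrays (log2 fold change 0.43, SE 0.13, adjusted p = 0.114). Its second probe set gave 1.17 (adjusted p = 0.0525). Hyou1, the nucleotide exchange factor of BiP, differed by 0.57 (SE 0.22, adjusted p = 0.194) and Manf, a secreted ER-resident protein that binds BiP, by 0.46 (SE 0.25, adjusted p = 0.397). On their brightest probe sets the J-domain co-chaperones of BiP lay closer to 0, at 0.17 for Dnajb11, 0.17 for Dnajc3 and -0.22 for Dnajb9. The further Dnajc3 probe sets above the median of all intensities disagreed, at 0.59 (limma adjusted p = 0.188), 0.44 (adjusted p = 0.0849) and -0.15 (adjusted p = 0.611). Without Arid1a d/d replicate 2 the median of the step was 0.16.

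Both lectin chaperones, which hold glycoproteins through their trimmed sugars, were above 0 without overlap, and neither passed the adjusted threshold. Calr, the soluble lectin calreticulin, had the higher mean and read 592, 688 and 618 on the Arid1a d/d arrays, against 580.5, 515 and 466 on the Arid1a f/f arrays (log2 fold change 0.28, SE 0.12, limma adjusted p = 0.234). Canx, its membrane-bound counterpart calnexin, read 471, 529.8 and 556 on the Arid1a d/d arrays, against 399.8, 407 and 388 on the Arid1a f/f arrays (log2 fold change 0.38, SE 0.10, adjusted p = 0.0748). The second probe set of Canx read 66.6, 68.9 and 57.6 on the Arid1a d/d arrays, against 43.3, 47.8 and 47.0 on the Arid1a f/f arrays, and passed the threshold (log2 fold change 0.48, SE 0.11, adjusted p = 0.0412). It was the only one called of 37 further probe sets of 21 members that read above the median of all intensities. Of these 37, 31 had the direction of the gene's brightest probe set, 15 farther from 0 and 16 nearer to it, and 6 had the opposite direction.

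Disulfide formation and exchange had 6 members, none called, with 5 above 0 and a median of 0.18. Without Arid1a d/d replicate 2 the median was 0.08, with 4 of 6 above 0. P4hb, the archetypal protein disulfide isomerase, had the highest mean and scarcely differed. It read 521, 539 and 498 on the Arid1a d/d arrays, against 545, 509 and 524 on the Arid1a f/f arrays (log2 fold change -0.02, SE 0.09, limma adjusted p = 0.951, 95% interval -0.23 to 0.19). Pdia4, an isomerase that works beside BiP and GRP94, had the largest difference, with 78.0, 87.2 and 92.5 on the Arid1a d/d arrays and 67.3, 68.4 and 61.9 on the Arid1a f/f arrays, without overlap (log2 fold change 0.38, SE 0.11, adjusted p = 0.0823). Pdia3, which serves the lectin chaperones, differed by 0.20 and also did not overlap, Pdia6 by 0.15 and Ero1l (current symbol Ero1a), the oxidase that recharges the isomerases, by 0.16. Creld2, an ER-resident protein with isomerase activity, differed by 0.25 but had the widest spread of all members, with 29.8, 71.2 and 52.9 on the Arid1a d/d arrays and 37.2, 50.2 and 35.7 on the Arid1a f/f arrays. Creld2 was at -0.03 without Arid1a d/d replicate 2.

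Among the 3 UPR sensors, Atf6 was called lower and the other two were not called. Their median was -0.15, and it turned on single arrays: leaving out replicate 1 gave -0.32 (Arid1a d/d) or -0.30 (Arid1a f/f), and leaving out replicate 3 gave -0.03 (Arid1a d/d) or -0.05 (Arid1a f/f). ATF6 is a membrane-bound transcription factor that is cut in the Golgi when unfolded proteins build up. Its probe set read 20.3, 18.1 and 17.85 on the Arid1a d/d arrays, against 25.9, 24.65 and 29.2 on the Arid1a f/f arrays, so that every Arid1a d/d array was below every Arid1a f/f array (log2 fold change -0.50, SE 0.11, limma adjusted p = 0.0369). The call rested on this probe set and on the number of arrays: the mean of the 3 Atf6 probe sets gave -0.22 (adjusted p = 0.141), and leaving out any array other than Arid1a d/d replicate 1 left the adjusted p between 0.0819 and 0.1198. Ern1, which encodes the IRE1 kinase and endonuclease that splices Xbp1, had the highest mean of the step and read 37.45, 28.1 and 25.2 on the Arid1a d/d arrays, against 27.1, 35.4 and 38 on the Arid1a f/f arrays, which overlapped (log2 fold change -0.15, SE 0.18, adjusted p = 0.735). Eif2ak3, which encodes the kinase PERK, read 21.1, 22.9 and 22.1 on the Arid1a d/d arrays and 21.6, 20.8 and 22.6 on the Arid1a f/f arrays (log2 fold change 0.03, SE 0.09, adjusted p = 0.933). Its 95% interval ran between -0.19 and 0.24.

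The UPR transcription factors and their targets had 5 members, none called, and their median log2 fold change was -0.29, with 1 of 5 above 0. Without Arid1a f/f replicate 2 the median was -0.14 and without Arid1a d/d replicate 1 it was -0.18, each with 2 of 5 above 0. All 5 overlapped between the genotypes, and 1, Xbp1, was lower at an unadjusted p under 0.05. Xbp1, whose transcript is spliced by IRE1 and whose protein is needed in secretory cells, had the highest mean. It read 393, 484 and 458 on the Arid1a d/d arrays, against 476, 604 and 559 on the Arid1a f/f arrays (log2 fold change -0.29, SE 0.13, limma adjusted p = 0.260), and its second probe set gave -0.55 (adjusted p = 0.0601). Ppp1r15a, the GADD34 subunit that returns translation after PERK has slowed it, had the largest difference of the step. It read 11.6, 18.6 and 17.6 on the Arid1a d/d arrays, against 17.2, 30.05 and 17.3 on the Arid1a f/f arrays, and Arid1a f/f replicate 2 stood above the other arrays (log2 fold change -0.41, SE 0.25, adjusted p = 0.447). Without that array Ppp1r15a was at -0.14. Ddit3, which encodes the factor CHOP, differed by -0.31 (SE 0.16, adjusted p = 0.377). Atf4, the factor translated after PERK signals, differed by 0.20 (SE 0.14, adjusted p = 0.514), and its second probe set by 0.62 (adjusted p = 0.0940). Trib3, a target of ATF4 and CHOP, read between 2.81 and 4.12 on the 6 arrays, near the median of 3.12 over all intensities, and so carries little information.

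ER-associated degradation, which returns misfolded proteins to the cytosol for the proteasome, had 4 members, none called, with a median of -0.21 and 1 of 4 above 0. Without Arid1a d/d replicate 1 the median was -0.11. Sel1l, the scaffold of the HRD1 ligase, had the highest mean and did not overlap. It read 61.9, 68.2 and 67.2 on the Arid1a d/d arrays, against 76.5, 74.1 and 78.0 on the Arid1a f/f arrays (log2 fold change -0.21, SE 0.09, limma adjusted p = 0.270). Edem1, a mannosidase-like protein that marks glycoproteins for disposal, read 43.9, 54.8 and 55.8 on the Arid1a d/d arrays, against 55.8, 62.9 and 61.9 on the Arid1a f/f arrays, and the genotypes met at 1 value (log2 fold change -0.23, SE 0.12, adjusted p = 0.368). Herpud1, a membrane protein of the same complex with an ERSE-II in its promoter, differed by -0.20 (SE 0.17, adjusted p = 0.617). Syvn1, which encodes the ligase HRD1 itself, differed by 0.16 (SE 0.19, adjusted p = 0.735), and its second probe set by -0.04.

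All 6 members of translocation and signal peptide removal were above 0, 5 of them without overlap between the genotypes and 4 at an unadjusted p under 0.05, yet none passed the adjusted threshold. Their median log2 fold change was 0.29, and 0.24 without Arid1a d/d replicate 2, with all 6 still above 0. Sec61a1, the pore of the SEC61 channel, had the highest mean and read 472, 561 and 449 on the Arid1a d/d arrays, against 424, 431 and 394 on the Arid1a f/f arrays (log2 fold change 0.24, SE 0.11, limma adjusted p = 0.304). Sec11c, a catalytic subunit of the signal peptidase, had the largest difference and read 105, 164 and 121 on the Arid1a d/d arrays, against 84.9, 81.1 and 82.9 on the Arid1a f/f arrays (log2 fold change 0.62, SE 0.16, adjusted p = 0.0620). The Arid1a f/f arrays lay close together for Sec11c, and the Arid1a d/d arrays spread widely above them. The small channel subunit Sec61b differed by 0.35 (SE 0.10, adjusted p = 0.0993). The translocon-associated proteins Ssr3 and Ssr1, which help nascent chains through the channel, differed by 0.30 (adjusted p = 0.121) and 0.28 (adjusted p = 0.228). The second probe set of Ssr3, of similar brightness, overlapped and gave 0.10 (adjusted p = 0.734), and that of Ssr1 gave 0.56 (adjusted p = 0.0920). Spcs2, an accessory subunit of the signal peptidase, differed by 0.12 and overlapped.

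The 4 members of transport between ER and Golgi held the gene with the largest fold change of the list, and they did not share a direction. Their median was 0.11, and leaving out Arid1a d/d replicate 1 gave 0.02, where leaving out replicate 3 of that genotype gave 0.17. SEC23B is a coat subunit of COPII vesicles that stimulates GTP hydrolysis by SAR1. Sec23b read 324, 371 and 451 on the Arid1a d/d arrays, against 218, 196 and 200.3 on the Arid1a f/f arrays, with means of 382 ± 64.5 in Arid1a d/d uteri and 205 ± 11.4 in Arid1a f/f uteri (SD, n = 3 each). Every Arid1a d/d array was above every Arid1a f/f array (log2 fold change 0.89, SE 0.13, limma adjusted p = 0.0110), and the adjusted p was 0.0540 without Arid1a f/f replicate 2. The other COPII member, the cargo adaptor Sec24d, read 168, 119 and 118 on the Arid1a d/d arrays, against 139.6, 135 and 143 on the Arid1a f/f arrays (log2 fold change -0.07, SE 0.14, adjusted p = 0.874). The KDEL receptor genes among the members, Kdelr2 and Kdelr3, whose proteins return escaped ER proteins, lay on opposite sides of 0, both without overlap. A further KDEL receptor gene outside the list, Kdelr1, overlapped and differed by -0.09 (SE 0.09, limma adjusted p = 0.710). Kdelr2 had the highest mean of the step and read 368, 377 and 341 on the Arid1a d/d arrays, against 311, 286 and 298 on the Arid1a f/f arrays (log2 fold change 0.28, SE 0.10, adjusted p = 0.155). Kdelr3 read 52.9, 59.5 and 52.0 on the Arid1a d/d arrays, against 73.4, 72.2 and 66.7 on the Arid1a f/f arrays (log2 fold change -0.37, SE 0.10, adjusted p = 0.0804).

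**Figure D3:**
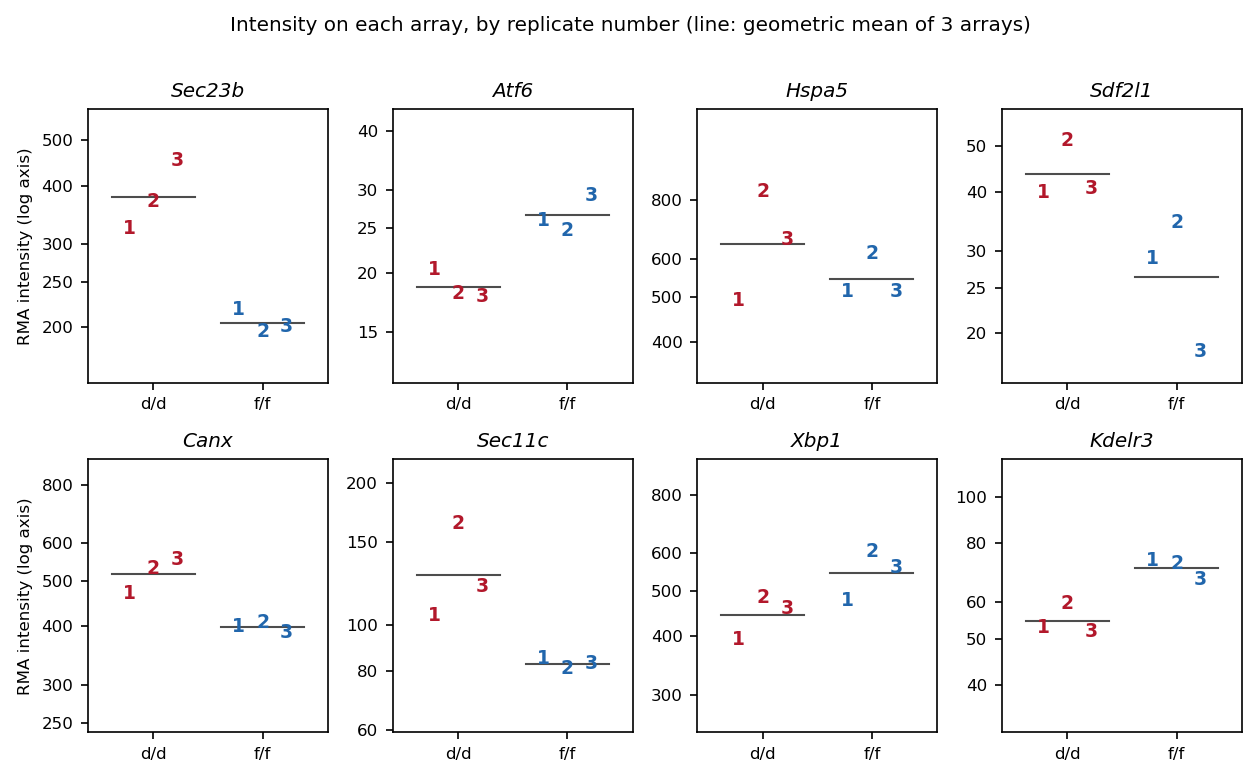
Linear RMA intensity (log axis) of 8 members on each array, with the replicate number as the symbol, Arid1a d/d on the left and Arid1a f/f on the right of each panel, and the geometric mean of 3 arrays as a line. Sec23b and Sec11c show Arid1a d/d arrays above all Arid1a f/f arrays, Atf6 and Kdelr3 show them below, and Hspa5 and Xbp1 overlap.

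Other genes of the same pathways were taken from 6 lists, and 94 of their 98 genes were measured by a probe set of their own. Of the 94, 2 were called higher in Arid1a d/d uteri (3.37% of all genes) and 2 lower (4.06% of all genes). For 19 of them every Arid1a d/d array was above every Arid1a f/f array (13.4% of all genes). For 10 every one was below (16.0% of all genes). At an unadjusted p under 0.05, limma gave 14 higher (11.4% of all genes) and 5 lower (13.5% of all genes). The median log2 fold change of the 94 was 0.04. Copb2, a subunit of the COPI coat, read 141, 159 and 148 on the Arid1a d/d arrays, against 114, 107 and 106 on the Arid1a f/f arrays (log2 fold change 0.46, SE 0.10, limma adjusted p = 0.0338). Mogs, the glucosidase that trims the first sugar from the N-glycan, read 45.6, 53.1 and 58.1 on the Arid1a d/d arrays, against 33.5, 36.7 and 37.4 on the Arid1a f/f arrays (log2 fold change 0.54, SE 0.12, adjusted p = 0.0373). Edem2, a mannosidase relative of Edem1, had the largest change of the 4 and read 16.0, 18.04 and 19.4 on the Arid1a d/d arrays, against 30.03, 28.6 and 27.5 on the Arid1a f/f arrays (log2 fold change -0.69, SE 0.11, adjusted p = 0.0122). Pdia5, a further disulfide isomerase, read 44.1, 39.2 and 35.8 on the Arid1a d/d arrays, against 56.3, 58.3 and 53.6 on the Arid1a f/f arrays (log2 fold change -0.50, SE 0.11, adjusted p = 0.0362). No gene was called among the 15 measured of other UPR signalling and target genes or the 15 of other targeting and translocation genes, where limma gave 1 and 3 higher and 1 and 0 lower at an unadjusted p under 0.05. The paralog Sec23a, chosen for mention after its values were seen, did not overlap and differed by 0.26 (SE 0.10, adjusted p = 0.212).

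Among the Arid1a d/d arrays many members' levels moved together by array, and among the Arid1a f/f arrays this was less clear. Arid1a d/d replicate 2 was the highest Arid1a d/d array for 28 of the 38 members, where it was for 31.8% of all genes. Arid1a d/d replicate 1 was the lowest for 27 members and the highest for 4, where it was the highest for 30.4% of all genes. The share of all genes lowest on that array was not counted. Arid1a f/f replicate 2 was the highest Arid1a f/f array for 20 members, where it was for 29.1% of all genes. It was also the lowest Arid1a f/f array for 11 members. For 15 members the arrays numbered 2 were the highest in both genotypes, against 9.77% of all genes, and these held 7 of the 8 ER chaperones and 4 of the 5 UPR transcription factors and targets. The labels do not say whether arrays with the same replicate number belong together. The median spread within a genotype was 0.18 on the log2 scale for the members, 0.30 for the ER chaperones and 0.11 for translocation and signal peptide removal, beside 0.16 for the 11516 genes in the members' range of levels. Trib3 alone set the lower end of that range (mean log2 intensity 1.74, next Ddit3 at 3.96). The range therefore takes in genes dimmer than all other members.

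**Figure D4:**
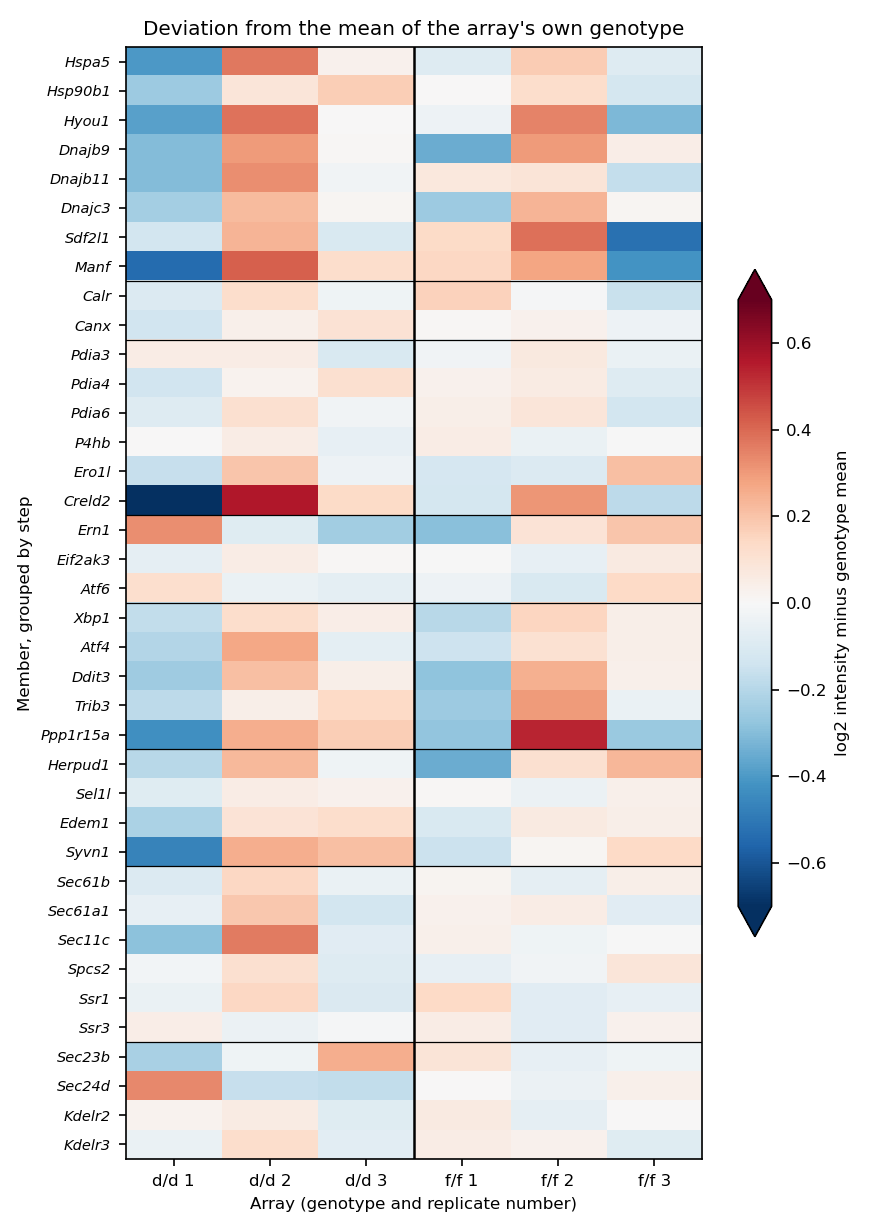
Log2 intensity of each member on each array minus the mean of that array's genotype, with the 3 Arid1a d/d arrays left of the line and the 3 Arid1a f/f arrays right of it. The ER chaperones in the top 8 lines are mostly red on the arrays numbered 2 and blue on Arid1a d/d replicate 1.

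Markers of the tissue's cell types moved with genotype and array. Of 9 measured epithelial markers 2, Cdh1 and Wnt7a, were called higher. The summed intensity of the 9 ran between 1164 and 2295 on the Arid1a d/d arrays and between 1097 and 1189 on the Arid1a f/f arrays. Arid1a d/d replicate 2, on which most members were highest, also had the highest epithelial sum. Of the Arid1a f/f arrays, replicate 2 was highest for most members, but the highest epithelial sum (1189) was on replicate 1. The keratin Krt8 read 593 on Arid1a d/d replicate 2, with 300.04 and 377 for Arid1a d/d replicates 1 and 3. It read between 214 and 261 on the Arid1a f/f arrays and was not called (log2 fold change 0.77, limma adjusted p = 0.0953). Krt18, a further keratin, differed by 0.14 (limma adjusted p = 0.739) and overlapped between the genotypes. Cldn3, the only epithelial marker below 0 (-0.39, limma adjusted p = 0.385), was highest on replicate 3 of the Arid1a d/d arrays. The 6 gland markers, of which 3 were called lower, summed to 19.1 to 22.1 on the Arid1a d/d arrays and 166 to 732 on the Arid1a f/f arrays. Spink3 made up much of the Arid1a f/f sum, with 104, 365 and 330. Prss28 and Prss29 read 2.46 and 2.75 on Arid1a f/f replicate 1, below the median of all intensities of 3.12, but 111 and 212 on Arid1a f/f replicate 2. All 8 endothelial markers were called lower, with sums of 174 to 211 on the Arid1a d/d arrays and 436 to 450.4 on the Arid1a f/f arrays. Stromal markers summed to 7706 to 9212 on the Arid1a d/d arrays and 9963 to 11148 on the Arid1a f/f arrays, with 1 of 7 called lower. Smooth muscle markers summed to 5666 to 6727 on the Arid1a d/d arrays and 6143 to 6962 on the Arid1a f/f arrays, with 1 of 6 called lower. Leukocyte markers summed to 186 to 230.3 on the Arid1a d/d arrays and 271 to 361 on the Arid1a f/f arrays, with 2 of 7 called lower. For plasma cells and B lineage cells, whose secretory load rests on these genes, the sums were 147 to 158 on the Arid1a d/d arrays and 137 to 156 on the Arid1a f/f arrays, with Sdc1, which epithelium also expresses and which made up much of the sum, the only one of 9 called (higher). Jchain, the joining chain of secreted antibodies, read 15.8, 4.39 and 7.66 on the Arid1a d/d arrays, against 21.1, 23.5 and 13.3 on the Arid1a f/f arrays (log2 fold change -1.21, SE 0.41, limma adjusted p = 0.149). Mzb1, an ER chaperone of these cells, differed by 0.26 (adjusted p = 0.337), and the plasma cell factors Prdm1 and Irf4 by -0.38 (adjusted p = 0.292, without overlap) and -0.29 (adjusted p = 0.239). The B cell receptor genes Cd79a and Cd79b read between 2.14 and 3.79, near the median of all intensities. Irf4 read between 1.97 and 2.86, below that median of 3.12, and so carries little information. Pou2af1 (-0.05) and Tnfrsf17 (0.08) also read below it on all arrays. The part of these shifts in the members' values was not tested, and in whole uteri fewer cells of a type and less RNA per cell cannot be told apart.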

How the data were processed

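The deposited table held linear RMA intensity values of 45037 Affymetrix probe sets on 6 arrays, with array medians of 3.05 to 3.17. Per the labels and the methods, the authors normalised the arrays by RMA with its default settings and scaled them globally. No source used here gives the software version. Here log2 of these intensities was tested with limma 3.58.1 (lmFit and eBayes, two-sided, R 4.3.3) for Arid1a d/d against Arid1a f/f, with p-values adjusted over the whole table by Benjamini-Hochberg and a call at an adjusted p under 0.05. The test was checked on simulated data with independent noise for each probe set, so the check does not cover genes that move together by array. The shifts it used were larger than any member's log2 fold change. No filter on dim probe sets was used. A probe set was used for a gene only where the platform annotation gave it 1 gene (34945 probe sets; 932 had several and 9160 were unnamed). Older list names (Ero1l) were matched through RefSeq synonyms. The number of arrays limits the precision. Values are given in full for called members and, in each step, for the member with the highest mean and the one with the largest absolute log2 fold change. Hsp90b1, Creld2, Eif2ak3, Sec24d, Kdelr3 and the second Canx probe set were also given in full, chosen after their values were seen, as were the further probe sets named. Other pathway genes were named where called, and Sec23a and Kdelr1 were chosen after their values were seen. Of the markers, Krt8, Krt18, Jchain and Mzb1 stood at the head of their lists. Cdh1 and Wnt7a were named because they were called. Cldn3, Spink3, Prss28, Prss29, Sdc1, Prdm1, Irf4, Pou2af1, Tnfrsf17, Cd79a and Cd79b were chosen after their values were seen. The members and gene lists were chosen with earlier results of these data known. Promoter sequences came from RefSeq. Alternatives covered the normalisation, the choice of probe set, the test, array weights, the replicate block, the threshold and leaving out each array.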

Additional observations from a re-analysis of the deposited data

How the results depend on the processing

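Only transcript levels of whole uteri on 3 arrays per genotype were measured, and most members did not pass the test. Readings as low as those of Trib3 lie near the median of all intensities. Of 19 other settings, 6 leave every fold change as it is. Of 494 member values under the other 13 settings, 481 kept their direction, and 32 members kept it under all. The cause of the 13 reversals was not tested. Leaving out 1 array gave -0.0460 to 0.00984 for P4hb, -0.0308 to 0.60 for Creld2, -0.00459 to 0.0560 for Eif2ak3, -0.14 to 0.14 for Trib3 and -0.23 to 0.0198 for Sec24d. Trib3 was at 0.000790 under quantile normalization. Syvn1 was at -0.0393 with cross-matching probe sets (suffixes _s_at and _x_at) left out. The number of members called higher, 1 by the main test, was 6 with eBayes trend and robust options (Hsp90b1, Canx, Sec61b, Sec11c, Ssr3 and Sec23b), 5 at an adjusted p under 0.1, 2 with the mean of all probe sets, 2 with the cross-matching probe sets left out and 2 with the probe set of the smallest p. The methods' t-test gave 9 higher and 3 lower members at p under 0.05, and 0 and 0 after Benjamini-Hochberg adjustment. Members called lower were 2 at an adjusted p under 0.1. Leaving out 1 array gave 0 to 3 members higher, 0 to 1 lower, 0 to 2 other pathway genes higher and 0 to 2 lower, and a median of the members of 0.0619 to 0.27. Other pathway genes called higher were 1 under quantile normalization, 4 with the probe set of the smallest p, and 14 (6 lower) by the methods' t-test at p under 0.05, with 0 and 0 after adjustment. Without the arrays numbered 2 of both genotypes, an alternative chosen after seeing the data, 0 members and 0 other pathway genes were called in either direction, the median of the members was 0.12, Eif2ak3 was at -0.0317 and Trib3 at 0.11. With the replicate number as a block, 2 members were higher (Sdf2l1 and Sec23b), 0 lower and 1 other pathway gene higher. Deviations of same-numbered arrays correlated at -0.00364, 0.0467 and 0.143, and those of differently numbered arrays at -0.119 to 0.0649. The main test did not take the numbers as pairs, and these correlations do not settle whether they are.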
